A study of Mus musculus with 8 samples.

Results

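The MHC class II presentation genes are the genes that build, load and switch on the molecules with which antigen-presenting cells show peptides to CD4 T cells. The group holds 7 of the 55487 genes measured: H2-Aa, H2-Ab1, H2-Eb1, H2-DMa, H2-DMb1, Cd74 and Ciita, found by gene symbol in both expression tables. The family was chosen by its measured levels with a tumor, since transcripts of it were already known to be lower in SRC-3KO than in control libraries of tumor-bearing mice. The values that chose it are therefore given for that contrast as a description, with no test.

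An MHC class II molecule is a pair of membrane proteins, an alpha and a beta chain. H2-Aa and H2-Ab1 encode the alpha and beta chains of I-A, and H2-Eb1 encodes the beta chain of I-E, whose alpha chain gene H2-Ea is defective in C57BL/6 mice, so that the strain shows no I-E at the cell surface. Cd74 encodes the invariant chain, which fills the peptide groove of new class II molecules and guides them to endosomes. H2-DMa and H2-DMb1 encode H2-DM, which there exchanges the last fragment of the invariant chain for an antigen peptide. Ciita encodes the coactivator that must be present for these genes to be transcribed. In the spleen, class II is carried mainly by B cells, dendritic cells and macrophages, and mouse T cells are generally described as lacking it.

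Regulatory T cells (Tregs), CD4 T cells that restrain immune responses, were isolated from spleens of C57BL/6 mice and sorted for GFP, and the study asked how the transcriptome of SRC-3KO Tregs differs from that of control Tregs. SRC-3 is a transcriptional coactivator encoded by Ncoa3. The 8 RNA sequencing libraries form 4 groups of 2: SRC-3KO Tregs from tumor-bearing mice, control Tregs from tumor-bearing mice, SRC-3KO Tregs without a tumor and control Tregs without a tumor. Control replicate 1 without a tumor is named WT and its source label lacks GFP+, whereas the other 3 controls are named for Foxp3 and Cre. Both SRC-3KO libraries without a tumor carry Tam1 in their names, a word left unexplained in the labels, and whatever it stands for cannot be told apart from genotype in that state. The sources used here do not give age, sex, tumor type, the cells in which SRC-3 was deleted or the number of animals per library. Nothing says that replicates are separate animals, so a p-value here reflects sample-to-sample spread alone and that spread may be technical.

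The libraries without a tumor were deposited as read counts, with totals of 27452922 and 31075452 in SRC-3KO and 25251597 and 24159217 in control. Those with a tumor were deposited as FPKM, fragments scaled to transcript length and to library size, and their read depth is unknown. Ncoa3, the targeted gene, stood at 47.5 and 27.7 FPKM in SRC-3KO and at 37.7 and 45.4 FPKM in control with a tumor. Without a tumor SRC-3KO had 39.6 and 26.7 CPM of it (counts scaled to library size with TMM factors), against 132 and 54.1 CPM in control. The sources used here do not name the deleted exons, so these values do not test the labels. Cd3e and Cd4, of T cells, and Foxp3, which defines Tregs, were above 0 in all 8 libraries, as was Cd79a of B cells. Foxp3 had 581 and 290 counts in SRC-3KO and 5809 and 538 counts in control without a tumor, and stood at 20.1 and 28.8 FPKM in SRC-3KO and at 18.4 and 14.7 FPKM in control with one. Control replicate 1 without a tumor stood apart: its Cd3d level was 0.138 of its Cd3e level per length, against 2.996 and 3.47 in SRC-3KO and 3.997 in control replicate 2. That library also had counts for 23941 genes, against 17040 and 17915 in SRC-3KO and 15333 in control replicate 2. Control replicate 2 with a tumor stood apart in myeloid transcripts, given below.

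The members lie at 3 places in the mouse genome (build mm10, positions of GENCODE vM21). H2-Aa (ENSMUSG00000036594, chromosome 17, 34282744 to 34287823, minus strand), H2-Ab1 (ENSMUSG00000073421, 34257689 to 34269419, plus strand) and H2-Eb1 (ENSMUSG00000060586, 34305867 to 34316674, plus strand) are neighbours in the MHC. H2-DMa (ENSMUSG00000037649, 34119541 to 34139101, plus strand) and H2-DMb1 (ENSMUSG00000079547, 34153072 to 34160230, plus strand) lie next to them on chromosome 17. Ciita (ENSMUSG00000022504, 10480059 to 10528418, plus strand) lies on chromosome 16, and Cd74 (ENSMUSG00000024610) on another chromosome still. The H2-DMa gene model overlaps Brd2 on the opposite strand, and the sources used here do not say whether strand was used in counting, so reads of these genes may have been exchanged. H2-DMb1 and H2-DMb2 are near-identical copies, between which the counting could have divided reads uncertainly.

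Class II promoters share short elements, the X box bound by RFX, the X2 box bound by CREB family factors and the Y box bound by NF-Y, on which the Ciita protein assembles. Promoter windows of 300 bases, 250 before and 50 after the annotated start, were at hand for 4 of the 7 members (RefSeq, build GRCm38.p6), and those of an alpha chain, a beta chain and an H2-DM gene are shown because they carry these elements in recognisable form. Capitals mark matches to 3 strings: AACNGATG, the core of the X box, TGACGTCA, a full CRE as in the X2 box, and ATTGG, the core of the Y box (CCAAT on the other strand). Both strands were searched, the 3 strings mark different bases here, and they were chosen after the sequences had been looked at.
H2-Aa: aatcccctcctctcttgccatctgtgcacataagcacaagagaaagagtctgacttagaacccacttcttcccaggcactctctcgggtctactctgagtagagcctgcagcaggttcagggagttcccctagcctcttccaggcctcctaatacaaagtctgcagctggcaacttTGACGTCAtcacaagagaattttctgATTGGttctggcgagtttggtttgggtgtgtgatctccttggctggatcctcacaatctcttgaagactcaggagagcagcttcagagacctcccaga
H2-Eb1: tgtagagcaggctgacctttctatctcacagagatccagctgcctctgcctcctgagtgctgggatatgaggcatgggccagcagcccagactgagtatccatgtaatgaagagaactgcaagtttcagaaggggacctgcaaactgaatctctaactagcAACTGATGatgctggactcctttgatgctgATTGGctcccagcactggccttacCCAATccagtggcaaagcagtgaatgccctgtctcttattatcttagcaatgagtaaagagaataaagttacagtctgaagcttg
H2-DMb1: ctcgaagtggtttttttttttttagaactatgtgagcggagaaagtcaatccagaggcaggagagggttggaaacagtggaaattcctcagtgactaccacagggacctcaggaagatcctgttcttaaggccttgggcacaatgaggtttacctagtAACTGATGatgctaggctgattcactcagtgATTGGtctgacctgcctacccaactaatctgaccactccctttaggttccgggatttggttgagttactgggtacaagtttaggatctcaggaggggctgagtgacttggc
The windows are chr17:34287774-34288073 on the minus strand, chr17:34305617-34305916 on the plus strand and chr17:34152941-34153240 on the plus strand. Relative to the annotated start, the X core of H2-Eb1 began at -89 and its first Y core at -59, with 22 bases between them. In H2-DMb1 they began at -92 and -61, with 23 bases between them. H2-Aa had no match to the X core string, and had a CRE beginning at -74 and a Y core beginning at -48, with 18 bases between them. H2-DMa, with 2 annotated windows, had a Y core at -198 in 1 of them and no X core string in either. Of all 32851 promoter windows, 762 (2.32%) held the X core string, 12289 (37.4%) the Y core string and 588 (1.79%) the CRE. An X core followed by a Y core within 50 bases on the gene's strand was found in 12 windows (0.0365%), of which 4 belong to H2-Eb1, H2-Eb2, H2-DMb1 and H2-DMb2. These are matches of letters and no measure of binding.

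In tumor-bearing mice the I-A and I-E chains lay below both controls in each SRC-3KO library, and the controls differed among themselves by more than 6-fold. H2-Ab1 stood at 14.5 and 17.6 FPKM in SRC-3KO and at 113 and 1094 FPKM in control. H2-Aa stood at 11.6 and 10.5 FPKM in SRC-3KO and at 71.8 and 532 FPKM in control. H2-Eb1 stood at 6.04 and 7.06 FPKM in SRC-3KO and at 39.4 and 254 FPKM in control. The SRC-3KO libraries lay close together for each of the 3 chains, and control replicate 2 was far above control replicate 1. The log2 fold changes, on the log2(FPKM + 1) scale and of SRC-3KO over control, were -4.38 for H2-Ab1 (SE 1.01), -4.03 for H2-Aa (SE 0.89) and -3.75 for H2-Eb1 (SE 0.83), with 2 libraries per group. Without control replicate 2 they were -2.75, -2.60 and -2.42 in the same order of genes, and leaving out control replicate 1 gave -6.01, -5.47 and -5.08. In these bulk libraries, fewer cells of a type and less RNA per cell cannot be told apart.

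The invariant chain, encoded on chromosome 18, was the most abundant member in all 4 of these libraries. Cd74 stood at 166 and 195 FPKM in SRC-3KO and at 311 and 2130 FPKM in control. Among all genes of its library it ranked 407 and 319 by FPKM in SRC-3KO and 282 and 12 in control. The groups did not overlap, but control replicate 1 was only 1.72 times the SRC-3KO mean, while for H2-Aa, H2-Ab1 and H2-Eb1 it was 6.51, 7.06 and 6.02 times that mean. The log2 fold change of Cd74 was -2.17 (SE 0.88), which became -0.78 on leaving out control replicate 2 and -3.56 on leaving out control replicate 1.

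The H2-DM genes differed from each other in how the controls were spread. H2-DMa, the alpha chain, stood at 46.0 and 59.3 FPKM in SRC-3KO and at 144 and 149 FPKM in control. Its controls were alike, with a ratio of 1.04, and its log2 fold change of -1.47 (SE 0.21) stayed between -1.65 and -1.29 under 9 alternative settings. Brd2, which overlaps it, stood at 18.2 to 23.9 FPKM in SRC-3KO and at 14.9 to 18.9 FPKM in control, with overlapping groups. H2-DMb1, the beta chain, stood at 2.47 and 2.09 FPKM in SRC-3KO and at 4.08 and 73.6 FPKM in control. Control replicate 2 was 18.1 times control replicate 1 for H2-DMb1, whose log2 fold change of -2.57 (SE 1.20) became -0.63 on leaving out control replicate 2 and -4.51 on leaving out control replicate 1. Its near-identical copy H2-DMb2 stood at 1.86 and 3.24 FPKM in SRC-3KO and at 15.5 and 13.0 FPKM in control. Summed, H2-DMb1 and H2-DMb2 gave 4.33 and 5.33 FPKM in SRC-3KO and 19.6 and 86.6 FPKM in control, so that the groups stayed apart however the reads were divided.

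Ciita, the coactivator, was the least abundant member in all 4 libraries. It stood at 0.226 and 0.217 FPKM in SRC-3KO and at 0.152 and 2.38 FPKM in control. Control replicate 1 was listed at 0.686 of the SRC-3KO mean of Ciita, and its class II chains at more than 6 times their own SRC-3KO means. Values this low, at an unknown read depth, do not order control replicate 1 and the SRC-3KO libraries. Ciita was below 1 FPKM in 3 of the 4 libraries and failed the filter of at least 1 FPKM in at least 2 libraries, so it has no fold change here.

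The other 6 members were at least 1 FPKM in all 4 libraries, and in each of the 6 the SRC-3KO libraries lay below both controls. Among all 12859 genes that passed the filter, 24.9% lay lower in this way. The median log2 fold change was -3.16 over the 6 members and -0.02 over all genes. By limma's adjusted p, 0.0933% of all genes were called lower and 0.0156% higher. Since this contrast chose the members, nothing is read from that count or median.

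**Figure D1:**
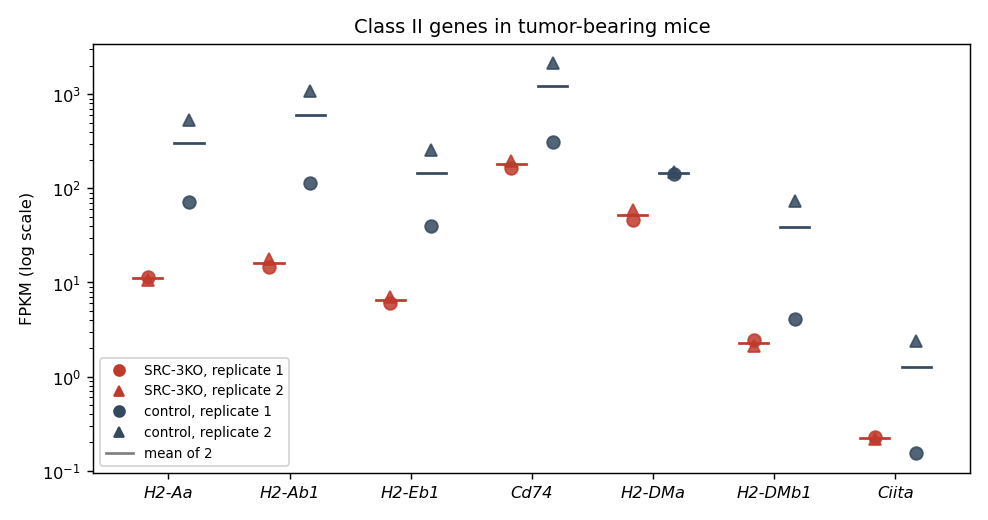
FPKM on a log axis of the 7 class II genes in tumor-bearing mice, with a circle for replicate 1, a triangle for replicate 2 and a line at the mean of 2 libraries, SRC-3KO in red and control in dark blue. The SRC-3KO libraries lie below both controls for every gene but Ciita, and control replicate 2 is above control replicate 1 for all 7, by 1.04 times for H2-DMa and 18.1 times for H2-DMb1.

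The members also stood in different proportion to each other. Per length, Cd74 was 11.5 and 11.1 times H2-Ab1 in the SRC-3KO tumor libraries, and 2.75 and 1.95 times H2-Ab1 in the control tumor libraries. H2-DMa was 3.18 and 3.37 times H2-Ab1 in SRC-3KO, and 1.27 and 0.137 times H2-Ab1 in control. Both ratios were higher in each SRC-3KO library than in each control, and H2-Ab1 was the gene that differed most between the groups. H2-Aa was 0.799 and 0.598 of H2-Ab1 in SRC-3KO and 0.635 and 0.486 in control, with overlapping groups. H2-Eb1 was 0.417 and 0.402 of H2-Ab1 in SRC-3KO and 0.348 and 0.232 in control, again higher in both SRC-3KO libraries but by less than for Cd74 or H2-DMa.

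**Figure D2:**
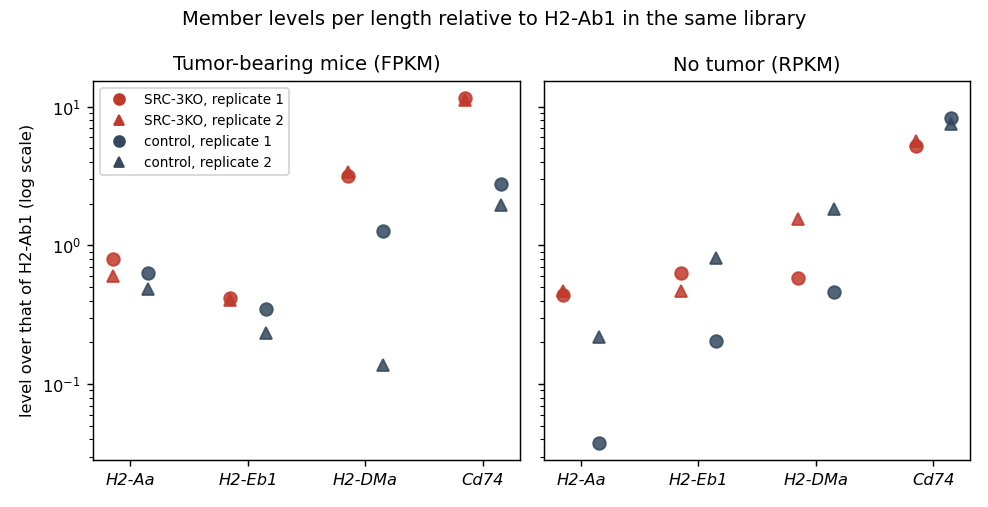
Level per length of 4 class II genes divided by that of H2-Ab1 in the same library, on a log axis, with FPKM in tumor-bearing mice on the left and RPKM (counts scaled to library size and exon length) without a tumor on the right. SRC-3KO is red and control dark blue, with a circle for replicate 1 and a triangle for replicate 2. With a tumor, Cd74 stands at 11.5 and 11.1 times H2-Ab1 in SRC-3KO and at 2.75 and 1.95 times in control; without a tumor SRC-3KO is at 5.18 and 5.66 and control at 8.32 and 7.48.

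Without a tumor the class II genes showed no common direction, and no member passed edgeR's quasi-likelihood test. The alpha chain H2-Aa was at 69.5 and 36.2 CPM in the SRC-3KO libraries and at 9.34 and 11.2 CPM in the controls, from 1915 and 1029 counts in SRC-3KO and 235 and 294 counts in control. Both SRC-3KO libraries were above both controls, the reverse of the tumor libraries. The edgeR log2 fold change was 2.36 (SE 0.80, adjusted p = 0.910, unadjusted p = 0.0256, n = 2 per group). It was between 1.88 and 2.78 under 8 alternative settings, with edgeR, DESeq2 or limma-voom adjusted p-values of 0.0277 to 1, the lowest of them without control replicate 2.

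Its partner chain H2-Ab1 behaved otherwise. H2-Ab1 was at 106.5 and 52.5 CPM in the SRC-3KO libraries and at 167 and 34.6 CPM in the controls. The controls enclosed both SRC-3KO libraries, and the edgeR log2 fold change was -0.34 (SE 1.002, adjusted p = 0.937), and 1.11 without control replicate 1 (edgeR adjusted p = 0.302). Per length, H2-Aa was 0.441 and 0.466 of H2-Ab1 in SRC-3KO and 0.0379 and 0.219 in control. The lowest of these ratios was in control replicate 1, the library whose Cd3d and Cd3e also stood in an unusual ratio. H2-Eb1 was at 51.3 and 18.6 CPM in the SRC-3KO libraries and at 26.0 and 21.1 CPM in the controls, with overlapping groups and a log2 fold change of 0.57 (SE 0.83, edgeR adjusted p = 0.910). That value was -0.27 without SRC-3KO replicate 1, the higher of the SRC-3KO libraries.

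Cd74 was at 361 and 194 CPM in the SRC-3KO libraries and at 907 and 169 CPM in the controls. Control replicate 1 was highest and control replicate 2 lowest. The log2 fold change was -0.95 (SE 1.09, edgeR adjusted p = 0.910), but 0.62 without control replicate 1 (edgeR adjusted p = 0.457) and -1.72 without control replicate 2 (edgeR adjusted p = 0.0301). H2-DMa was at 82.6 and 109.6 CPM in the SRC-3KO libraries and at 102 and 84.9 CPM in the controls, with a log2 fold change of 0.04 (SE 0.74, edgeR adjusted p = 0.989). Brd2 stood at 24.8 to 30.2 CPM in SRC-3KO and at 21.4 to 201 CPM in control, with overlapping groups.

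The 2 least abundant members rested on few counts. H2-DMb1 had 87 and 26 counts in SRC-3KO and 52 and 9 counts in control, and the exact Poisson 95% interval of the lowest, 4.12 to 17.1 counts, shows its counting error alone. Its log2 fold change was 0.75 (SE 1.58, edgeR adjusted p = 0.925). Ciita had 22 and 27 counts in SRC-3KO and 118 and 46 counts in control, which is 0.798 and 0.9495 CPM in the SRC-3KO libraries and 4.69 and 1.75 CPM in the controls. Both SRC-3KO libraries were below both controls, with a log2 fold change of -1.88 (SE 1.36, edgeR adjusted p = 0.910). Ciita was thus lower where H2-Aa was higher, and neither passed the test.

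All 7 members passed the filter on low counts. With edgeR 0 were called, against 0% of all 14860 genes tested, and 1 member, H2-Aa, had an unadjusted p under 0.05, against 3.18% of all genes. DESeq2 and limma-voom also called 0 members. Groups did not overlap for H2-Aa, higher in SRC-3KO as were 23.8% of all genes, and for Ciita, lower as were 16.9% of all genes, while 40.6% of all genes were apart in either direction. The median log2 fold change of the members was 0.04, and that of all genes -0.02. Left without control replicate 2, edgeR called H2-Aa as higher and Cd74 as lower, in a fit that called 7434 genes. That fit takes control replicate 1, which stands apart, as its only control.

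**Figure D3:**
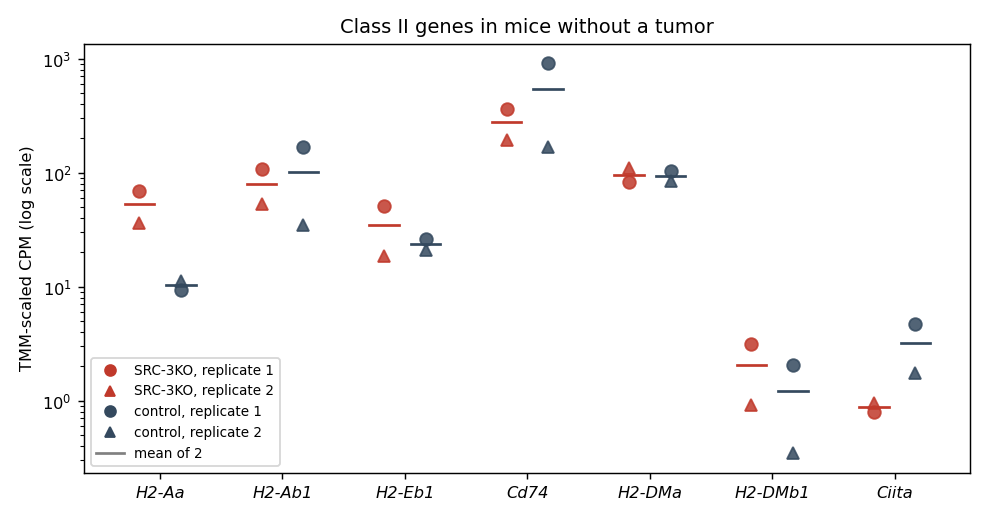
TMM-scaled CPM on a log axis of the 7 class II genes in mice without a tumor, with SRC-3KO in red left of control in dark blue, a circle for replicate 1, a triangle for replicate 2 and a line at the mean of 2 libraries. H2-Aa is higher in both SRC-3KO libraries, Ciita is lower in both, and the other 5 genes overlap.

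**Figure D4:**
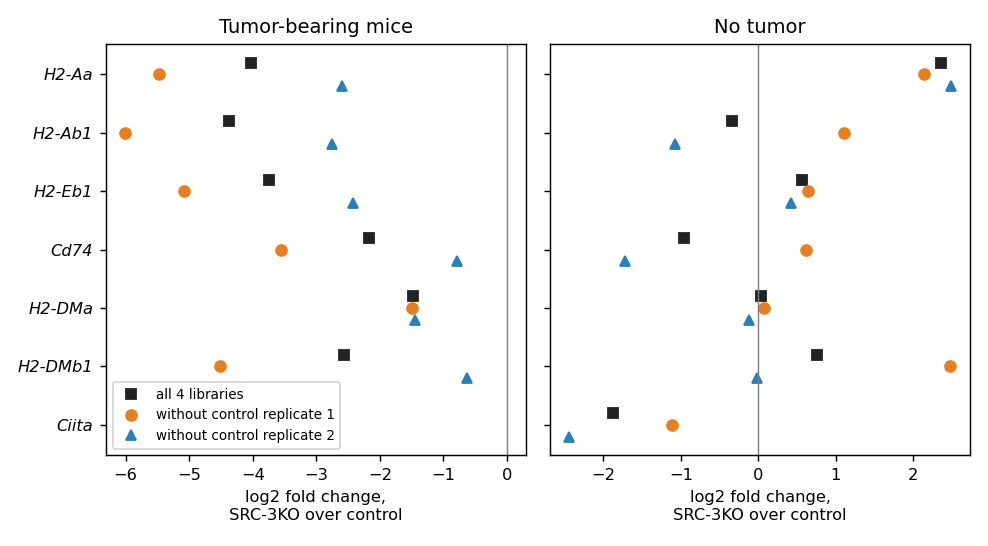
Log2 fold changes of SRC-3KO over control for the class II genes, from all 4 libraries of a state (black squares), without control replicate 1 (orange circles) and without control replicate 2 (blue triangles), with tumor-bearing mice on the left (log2(FPKM + 1)) and no tumor on the right (edgeR). Ciita has no value with a tumor. With a tumor all values are below 0 and those of H2-DMa differ least, from -1.50 to -1.45, while without a tumor Cd74 is at 0.62 without control replicate 1 and at -1.72 without control replicate 2.

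The tables with and without a tumor were made and normalised separately, so levels across them were not tested. Listed per length, the summed level of H2-Aa, H2-Ab1 and H2-Eb1 was 32.1 and 35.1 FPKM in SRC-3KO and 224 and 1880 FPKM in control with a tumor. Without a tumor it was 86.1 and 39.6 RPKM in SRC-3KO and 80.8 and 27.3 RPKM in control. The control libraries with a tumor thus had the highest listed sums, and the other 6 libraries lay between 27.3 and 86.1. In every library Cd74 was the highest of the members and Ciita the lowest per length, and H2-DMb1 came just above Ciita.

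Markers of cells that normally carry class II were set beside these sums. In tumor-bearing mice the B cell list of 16 genes summed to 252 and 213 FPKM in SRC-3KO and to 685 and 690 FPKM in control, and without the abundant antibody gene Ighm to 13.9 and 11.6 FPKM in SRC-3KO and 38.5 and 33.8 FPKM in control. Of the 16 genes, 2 were listed at 0 in each SRC-3KO library and 4 and 0 in the controls. Cd79a, a part of the B cell receptor, was at 0.395 and 0.308 FPKM in SRC-3KO and at 10.3 and 8.74 FPKM in control, and fell by 2.96 on the log2 scale (SE 0.24, limma adjusted p = 0.0410). It passed the filter only through the controls. Cd79b, its partner in that receptor, made up most of the SRC-3KO sums without Ighm. Cd79b was at 11.7 and 9.19 FPKM in SRC-3KO and at 18.9 and 13.7 FPKM in control. Its log2 fold change was -0.59 (SE 0.25, limma adjusted p = 0.324). Ms4a1, the B cell antigen CD20, was at 0.0060 and 0.0801 FPKM in SRC-3KO and at 0.812 and 1.70 FPKM in control. Of the 16 genes of the list, 11 were lower in both SRC-3KO libraries, 1, Fcer2a, was higher in both, and 4 overlapped. Fcer2a was at 0.217 and 0.583 FPKM in SRC-3KO and at 0 and 0.000008 FPKM in control. Among all genes that passed the filter, 24.9% lay lower and 27.5% higher in this way. Of the 16, 6 passed the filter, and of these only Ighm and Cd79b reached 1 FPKM in SRC-3KO. Several of the 11 were below 1 FPKM in every library, so nothing is read from the count. The list sum, most of it Ighm at 646 and 657 FPKM, was about equal in the controls. Single markers differed there, with control replicate 2 at 2.10 times control replicate 1 for Ms4a1 and at 0.423 times for Blk. The sum of the class II chains differed by 8.38 times between the controls, and the part of B cells in that difference was not tested.

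The plasma cell list of 6 genes, of an antibody-secreting stage that loses class II, summed to 22.9 and 41.8 FPKM in SRC-3KO and to 1045 and 1695 FPKM in control. Of its genes, 2 and 1 were listed at 0 in SRC-3KO and 1 in each control. Jchain, which links antibody units, was at 0 and 0.581 FPKM in SRC-3KO and at 43.5 and 61.7 FPKM in control, and fell by 5.39 on the log2 scale (SE 0.32, limma adjusted p = 0.0204). It passed the filter only through the controls. In all, 14 genes (0.109% of those tested) were called in the tumor contrast.

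Myeloid transcripts set control replicate 2 apart. The monocyte and macrophage list of 11 genes summed to 17.4 and 13.3 FPKM in SRC-3KO and to 12.03 and 1456 FPKM in control, with 3 and 4 genes listed at 0 in SRC-3KO and 7 and 0 in control. Lyz2, the lysozyme of myeloid cells, was at 0.771 and 0.770 FPKM in SRC-3KO and at 0.404 and 1108 FPKM in control. Csf1r, the macrophage growth factor receptor, was at 0 and 0.0558 FPKM in SRC-3KO and at 0 and 57.7 FPKM in control. The neutrophil list of 10 genes summed to 1.69 and 0.241 FPKM in SRC-3KO and to 5.28 and 4135 FPKM in control, with 6 and 8 genes at 0 in SRC-3KO and 3 and 0 in control. S100a8, a neutrophil calcium-binding protein, was at 0.872 and 0 FPKM in SRC-3KO and at 1.38 and 1851 FPKM in control. None of the 2 monocyte and 3 neutrophil genes that passed the filter was called by limma, at an adjusted or an unadjusted p. In control replicate 1 Lyz2 and Csf1r were at 0.404 and 0 FPKM. Adgre1, another macrophage gene, was at 0.249 FPKM there, against at most 0.0106 FPKM in SRC-3KO. The monocyte and macrophage sum of that library was below both SRC-3KO sums, and its neutrophil sum was above both. Its class II chains were 6.02 to 7.06 times the SRC-3KO mean, and their source was not tested.

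The sum of the dendritic cell list of 8 genes overlapped between the groups, but its genes differed in direction. It summed to 5.13 and 7.02 FPKM in SRC-3KO and to 3.26 and 10.8 FPKM in control, with 5 and 2 genes at 0 in SRC-3KO and 4 and 1 in control. Zbtb46, a transcription factor of conventional dendritic cells, made up most of the SRC-3KO sums. It was at 4.71 and 6.35 FPKM in SRC-3KO and at 2.36 and 3.10 FPKM in control, and it alone passed the filter. Flt3 was at 0 and 0.0085 FPKM in SRC-3KO and at 0.206 and 0.949 FPKM in control. Of the 8 genes, 1, Zbtb46, was higher in both SRC-3KO libraries, 2, Flt3 and Clec10a, were lower in both, and 5 overlapped. Among all genes that passed the filter, 27.5% lay higher and 24.9% lower in this way. Itgax, which overlapped, was at 4.89 FPKM in control replicate 2. Xcr1, a receptor of one dendritic cell subset, was at 0.407 and 0.568 FPKM in SRC-3KO and at 0.680 and 0.402 FPKM in control. Siglech, of plasmacytoid dendritic cells, was at 0 in both SRC-3KO libraries and at 0 and 1.15 FPKM in control. The T cell and Treg list of 9 genes summed to 2880 and 2839 FPKM in SRC-3KO and to 2879 and 2063 FPKM in control. Of its 9 genes, 6 were higher in both SRC-3KO libraries, 0 were lower in both and 3 overlapped, beside the same shares of all genes. Limma called 0 of the 9. The part of any of these cell types in the class II levels was not tested.

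Without a tumor the marker lists moved otherwise. The B cell list without Ighm summed to 44.4 and 19.1 RPKM in SRC-3KO and to 11.6 and 11.98 RPKM in control. Cd79b, the partner of Cd79a in the B cell receptor, made up most of the SRC-3KO sums, at 27.0 and 12.2 RPKM in SRC-3KO and at 1.25 and 4.67 RPKM in control. Of the 9 genes of the list that passed the filter, 7 had overlapping groups and 0 were lower in both SRC-3KO libraries. The other 2, Cd79b and Fcrla, were higher in both, as were 23.8% of all genes. Their edgeR unadjusted p-values were 0.0398 and 0.0366, with an adjusted p of 0.910 for each. Of the 9, 5 had log2 fold changes below 0, and the median of all 9 was -0.35. With Ighm the list summed to 130.5 and 87.2 RPKM in SRC-3KO and to 51.3 and 176 RPKM in control, and the groups overlapped. Of its 16 genes, 5 and 6 were at 0 in SRC-3KO and 0 and 9 in control. Cd79a had 509 and 121 counts in SRC-3KO and 198 and 130 counts in control. The plasma cell list summed to 1307 and 592 RPKM in SRC-3KO and to 35.8 and 2056 RPKM in control, with 0 genes at 0 in SRC-3KO and 1 and 2 in control.

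The monocyte and macrophage list summed to 24.0 and 69.4 RPKM in SRC-3KO and to 10.3 and 41.2 RPKM in control, with 4 genes at 0 in each SRC-3KO library and 5 and 6 in control. Lyz2 had 413 and 2070 counts in SRC-3KO and 0 and 1108 counts in control. Cd74 was highest in control replicate 1, the library with 0 counts of Lyz2. Cd68, of the same list, was at 11.4 CPM in that library and at 9.65 CPM in control replicate 2. In SRC-3KO it was at 9.91 to 14.0 CPM. The neutrophil list summed to 0.0695 and 0.743 RPKM in SRC-3KO and to 0.0747 and 412 RPKM in control, with 9 and 7 genes at 0 in SRC-3KO and 8 and 4 in control, and S100a8 had counts in control replicate 2 alone, 1361 of them. The dendritic cell list summed to 0.859 and 0.268 RPKM in SRC-3KO and to 0.739 and 0.383 RPKM in control, with 6 genes at 0 in each SRC-3KO library and 5 and 6 in control. Of its genes, Zbtb46 had 136 and 29 counts in SRC-3KO and 47 and 11 counts in control, and Xcr1 had 0 counts in both SRC-3KO libraries and 51 and 39 counts in control. The T cell and Treg list summed to 4284 and 4453 RPKM in SRC-3KO and to 1359 and 2942 RPKM in control. Of its 9 genes, 6 were higher in both SRC-3KO libraries, 1 was lower in both and 2 overlapped. Among all genes tested, 23.8% lay higher and 16.9% lower in this way, and edgeR called 0 of the 9. The part of any of these cell types in the class II levels without a tumor was not tested either.

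**Figure D5:**
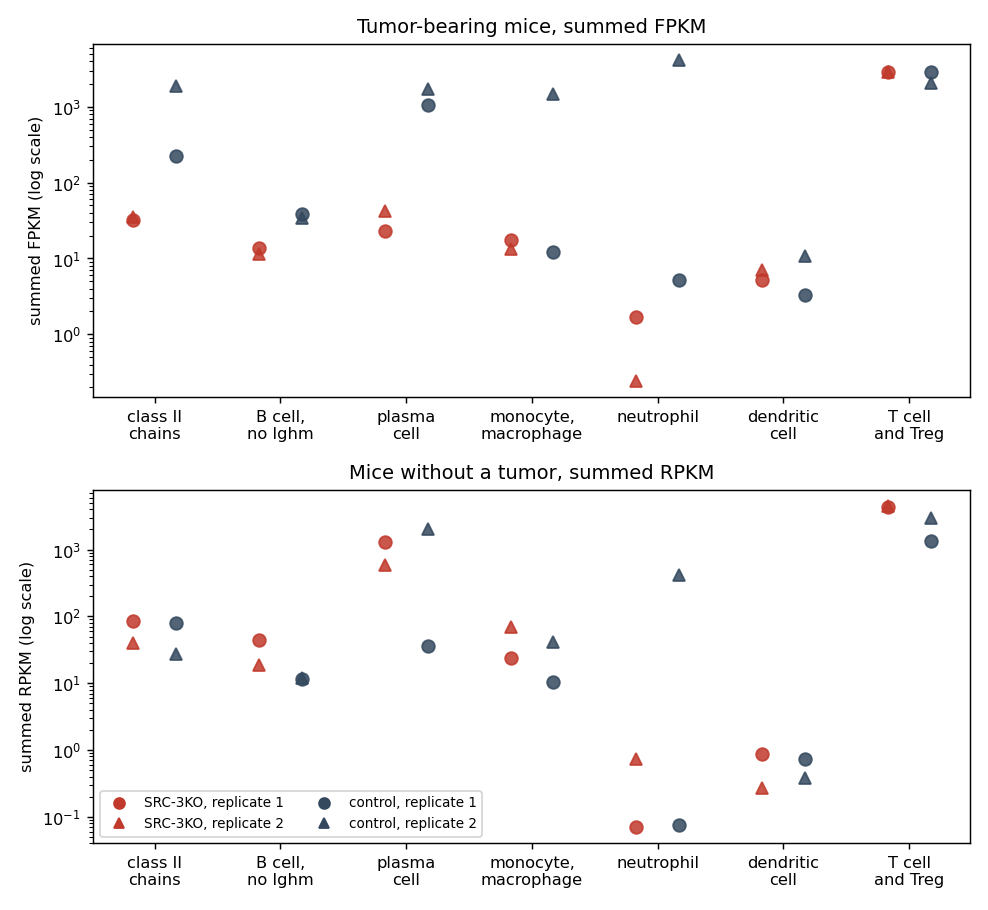
Summed level per length of the 3 class II chains and of marker lists in each library, on log axes, as FPKM in tumor-bearing mice (top) and RPKM without a tumor (bottom), with SRC-3KO in red left of control in dark blue, a circle for replicate 1 and a triangle for replicate 2. With a tumor, the class II and B cell sums are lower in both SRC-3KO libraries, while the monocyte and macrophage sum is high in control replicate 2 alone, at 1456 FPKM against 12.03 FPKM in control replicate 1.

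The wider pathway was described by 6 lists holding 36 genes besides the members. With a tumor 29 passed the filter, and limma called 0 of them over all genes tested, with 5 at an unadjusted p under 0.05 against 16.5% of all genes. Among the other class II chains, H2-DMb2 differed by -2.13 on the log2 scale (SE 0.28, limma adjusted p = 0.121). H2-Oa, a chain of the H2-DM inhibitor H2-O, stood at 7.20 and 8.15 FPKM at its lowest and highest in SRC-3KO and at 8.03 and 9.81 FPKM in control, a difference of -0.19 on the log2 scale (SE 0.22, limma adjusted p = 0.676). The 3 others of the 5 genes in that list did not pass the filter.

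Of the 7 processing genes, 6 had log2 fold changes below 0, with a list median of -1.44 against -0.02 for all genes, and 0 were called. Ctsl, a protease of endosomes, stood at 1.16 to 1.37 FPKM in SRC-3KO and at 2.98 to 14.8 FPKM in control (log2 fold change -1.81, SE 0.65, limma adjusted p = 0.273). Lgmn, an asparagine-cutting endosomal protease, stood at 1.98 to 2.43 FPKM in SRC-3KO and at 3.27 to 23.2 FPKM in control (log2 fold change -1.67, SE 0.80, limma adjusted p = 0.358). Ifi30, which reduces disulphide bonds of antigens, and Ctsd, another endosomal protease, had log2 fold changes of -1.47 (SE 0.70, limma adjusted p = 0.360) and -1.28 (SE 0.62, limma adjusted p = 0.364). Ctss, which cuts the invariant chain, stood at 106 and 109 FPKM at its lowest and highest in SRC-3KO and at 102 and 846 FPKM in control, so that its groups overlapped. Ctsl, Lgmn, Ifi30, Ctsd and Ctss shared with the chains a high value in control replicate 2. Sppl2a, which alone had a log2 fold change above 0, stood at 13.5 to 20.1 FPKM in SRC-3KO and at 6.38 to 15.5 FPKM in control (log2 fold change 0.67, SE 0.43, limma adjusted p = 0.473).

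Over the 8 genes of the enhanceosome, the promoter-binding factors, the median log2 fold change was 0.23, 1 was below 0 and limma called 0, with 1 at an unadjusted p under 0.05. Rfx5, Rfxap and Rfxank, the RFX subunits, had log2 fold changes of 0.33 (SE 0.25), -0.39 (SE 0.24) and 0.25 (SE 0.20), with limma adjusted p-values of 0.519, 0.457 and 0.546. Crebbp, a histone acetyltransferase, stood at 6.39 to 6.43 FPKM in SRC-3KO and at 2.65 to 3.75 FPKM in control (log2 fold change 0.83, SE 0.25, limma adjusted p = 0.229).

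Among the 9 genes that induce or silence Ciita the median log2 fold change was 0.03 and 0 were called. Prdm1, whose protein Blimp-1 silences Ciita in plasma cells, stood at 20.6 and 18.3 FPKM in SRC-3KO and at 9.75 and 10.5 FPKM in control (log2 fold change 0.88, SE 0.19, limma adjusted p = 0.164). It was thus higher in both SRC-3KO libraries, while the plasma cell list was lower there. Irf1, Ifngr2 and Socs1, of the interferon gamma route, had log2 fold changes of -0.51 (SE 0.28), -0.64 (SE 0.36) and 0.32 (SE 0.19), with limma adjusted p-values of 0.406, 0.419 and 0.443.

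Cd83, which keeps class II at the surface by opposing the ubiquitin ligase March1, stood at 121 and 135 FPKM in SRC-3KO and at 53.5 and 58.0 FPKM in control. Both SRC-3KO libraries were above both controls and each group was tight, and the difference was 1.18 on the log2 scale (SE 0.19, limma adjusted p = 0.123). Cd83 was the 1 pathway gene called both without control replicate 1 (1.13, limma adjusted p = 0.0306) and without control replicate 2 (1.24, limma adjusted p = 0.0284), in fits that called 459 and 2510 genes. Of the ligases, March1 was at or under 0.0356 FPKM in SRC-3KO and at 0 and 9.79 FPKM at its lowest and highest in control, and March8 also failed the filter. The costimulators Cd40 and Cd86 had log2 fold changes of -1.31 (SE 1.14) and -0.36 (SE 0.51), with limma adjusted p-values of 0.574 and 0.738.

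Without a tumor 33 of the 36 pathway genes passed the filter, and edgeR, DESeq2 and limma-voom each called 0. With edgeR, Cd80 alone had an unadjusted p under 0.05. Cd80, a costimulator that binds CD28 and CTLA-4 on T cells, stood at 5.59 to 11.8 CPM in SRC-3KO and at 0.191 to 0.675 CPM in control (log2 fold change 4.31, SE 1.34, edgeR adjusted p = 0.910, unadjusted p = 0.0181). Ctss stood at 197 to 215 CPM in SRC-3KO and at 10.2 to 125 CPM in control (log2 fold change 1.61, SE 1.23, edgeR adjusted p = 0.910). Rfxank stood at 21.6 to 26.7 CPM in SRC-3KO and at 6.68 to 7.23 CPM in control (log2 fold change 1.80, SE 0.79, edgeR adjusted p = 0.910). Jak2, a kinase of the interferon gamma receptor, stood at 29.7 to 46.2 CPM in SRC-3KO and at 47.3 to 325 CPM in control (log2 fold change -2.29, SE 1.12, edgeR adjusted p = 0.910). Cd83 stood at 27.1 to 46.7 CPM in SRC-3KO and at 50.2 to 59.4 CPM in control (log2 fold change -0.57, SE 0.75, edgeR adjusted p = 0.910), lower in both SRC-3KO libraries where with a tumor it was higher. The remaining genes with the smallest adjusted p per list did not pass the test either. Their log2 fold changes in the processing list were -1.12 for Ctsd (SE 0.86), 0.59 for Sppl2a (SE 0.74) and 0.57 for Ctsb (SE 0.76), proteases of the endosome. Among promoter factors they were 1.20 for Creb1 (SE 0.78), -1.11 for Rfxap (SE 0.998) and 0.68 for Nfyb (SE 0.76). Among Ciita regulators they were 1.49 for Ifngr1 (SE 0.82), -1.63 for Prdm1 (SE 1.03) and 1.07 for Jak1 (SE 0.83). H2-Oa, H2-Ob and H2-DMb2 were at 0.88 (SE 1.08), -0.05 (SE 1.29) and 0.66 (SE 1.56), and Cd40, Icosl and Cd86 at -1.08 (SE 1.24), 0.86 (SE 2.53) and 0.16 (SE 1.58). March8, with at most 0.254 CPM in SRC-3KO and 0.992 to 5.20 CPM in control, was at -4.56 (SE 2.24). Their edgeR adjusted p-values were 0.910 to 0.991. The list medians were 0.66 for the other chains, 0.40 for processing, 0.07 for the enhanceosome, -0.28 for Ciita control, -2.57 for surface turnover and 0.51 for costimulators, against -0.02 for all genes.

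The 10 genes outside the family whose profiles over the 8 libraries were nearest to the mean of the 3 class II chains were Csf2rb, Calhm6, Ifi211, Ms4a6d, Pld4, Basp1, Ccl17, Cd63-ps, Apoe and Cd63. Likeness was the root mean square difference of centred log2 values, which was 0.599 for Csf2rb, 0.851 for Cd63 and 1.80 at the median of 11244 genes. By the same measure H2-Eb1 was at 0.251, H2-Ab1 at 0.504, H2-Aa at 0.541, H2-DMb1 at 0.604, Cd74 at 0.933 and H2-DMa at 1.26. The first 3 of these member values include the gene itself in the mean, and Ciita was below the minimum level. The 10 genes were picked as the nearest of 11244, and the profile includes the tumor values that chose the family. Nothing is therefore read from the order of members and picked genes. Some of the 10, such as Csf2rb and Pld4, reached the minimum mean with a tumor only through control replicate 2, at 35.7 and 24.5 FPKM. Calhm6 stood at 6.20 and 4.84 FPKM in SRC-3KO and at 10.4 and 150.01 FPKM in control with a tumor. Apoe, a lipid carrier, stood at 1.39 and 1.48 FPKM in SRC-3KO and at 39.8 and 43.0 FPKM in control. Of the 10, all but Apoe had their highest tumor value in control replicate 2 at more than 7 times control replicate 1.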

How the data were processed

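RNA of sorted splenic Tregs was made into libraries with the SMART-Seq v4 kit, per the labels' protocols. FastQC, Trim Galore, STAR, featureCounts, edgeR and build mm10 are named in the submitters' processing notes, and the names of files and columns also mention StringTie; the sources used here give no versions, strand setting or annotation. The authors deposited raw read counts per gene for the 4 libraries without a tumor, and FPKM values per gene for the 4 libraries with a tumor. The members and gene lists were chosen with earlier results of these data known.

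The counts were fitted in edgeR 4.0.16 (R 4.3.3) by quasi-likelihood after filterByExpr, scaled by TMM (factors of 0.916 to 1.09); their common dispersion was 0.791. The FPKM were fitted in limma 3.58.1 as log2(FPKM + 1), a scale that understates changes of low genes, using an intensity trend and keeping genes that reached 1 FPKM in 2 or more libraries. That fit had 5.37 degrees of freedom. Each fit covered all genes, with Benjamini-Hochberg adjustment and a threshold of 0.05. RPKM was computed from TMM-scaled counts and the exon length of GENCODE vM21, to which 55227 of 55487 genes matched by ID. Poisson intervals cover counting error only.

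Genes named were the members, up to 4 genes per pathway list with the smallest adjusted p in each state, the defining markers, and the 10 nearest profiles among genes with a mean of at least 1 in both tables. Values of Ctss and Sppl2a with a tumor, March1, March8, Ncoa3, Brd2, Fcer2a and Cd79b were added after the data were seen. So were those of Adgre1, Blk, Cd68, Clec10a, Fcrla, Flt3, Ighm and Itgax. March1 and March8 were matched by gene ID. Other settings tried were limma-voom, DESeq2 1.42.0, different scalings and filters, a pseudocount of 0.1, a replicate block, removal of a trend with length, and leaving out each library. Tumor libraries with the same replicate number did not deviate together (correlation of deviations 0.0357 over 12859 genes), so the numbers were not taken as pairs. One of the defining markers is not reported here.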

Additional observations from a re-analysis of the deposited data

Results flagged for a closer look

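H2-Aa, the I-A alpha chain, had both SRC-3KO libraries above both controls without a tumor and below both controls with a tumor. Among all genes tested, 23.8% lay higher in this way without a tumor and 24.9% lower with one. Its log2 fold change was 2.36 without a tumor (edgeR adjusted p = 0.910) and -4.03 with a tumor. The tumor contrast chose the family, and without a tumor genotype cannot be told apart from Tam1. The difference between the states was not tested, since the tables hold different units.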

How the results depend on the processing

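Without a tumor, the fold changes of H2-Aa and Ciita kept their sign under all 8 alternatives, and those of the other 5 members turned sign in at least 1, with no turned value called. The tumor fold changes of the 6 members with a value stayed below 0 under 9 alternatives. The groups of these 6, and those of H2-Aa and Ciita without a tumor, did not overlap. Leaving out a library could therefore hardly turn their signs, so nothing is read from signs that stayed. The median log2 fold change of the members with a tumor, -3.16, was -4.79 on leaving out control replicate 1 and -1.93 on leaving out control replicate 2, the range over single libraries left out. Without a tumor the median of 0.04 ranged from -0.33 to 0.64 over single libraries left out. Members called without a tumor numbered 0, and 0 to 2 with a library left out. Pathway genes called numbered 0 in both states, and with a library left out 0 to 16 without a tumor and 0 to 8 with one. The 2 and the 16 came from the fit without control replicate 2, which called the most genes of the fits without a tumor. The 8 came from the tumor fit without control replicate 1. Each of these fits has 1 control library, so nothing is read from these counts.

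Over all genes without a tumor, calls numbered 0 with edgeR and limma-voom, 87 with DESeq2 and 70 without the filter, and 0 to 7434 with a library left out. With a tumor the 14 calls became 7 with a pseudocount of 0.1 and 1 without the filter, and 31 to 2510 with a library left out. The cause of these shifts was not tested. A fit that leaves out a library assumes that the lone library varies like the others. With the replicate number as a block, 72 genes were called with a tumor and the members' median stayed -3.16; no paired analysis was possible without a tumor because the replicate numbers there were given in accession order. The settings moved the median of all genes without a tumor from -0.02 to -0.15 with DESeq2, 0.24 with limma-voom and -0.76 without the filter.

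Limits are 2 libraries per group, controls that differ among themselves in both states, unknown read depth with a tumor, and a genotype that cannot be told apart from Tam1 without one.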
